A study of Mus musculus with 54 samples.

Results

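Transplanted tMPP3 cells were the mouse haematopoietic cells that the deposited annotation lists as transplanted (Tx) and to which the authors gave the predicted type tMPP3. There were 114 of them among 1031 transplanted cells and 2301 annotated cells. Cells from 8 to 10 week old C57BL/6 mice had been sorted in steady state (Ho) or collected 1, 3, 5 or 7 days after transplantation, and each was profiled by a modified Smart-seq2 protocol that reads the 3' ends of mRNA. Libraries, each a pool of single cells numbered as in the labels, are written L58 and so on; those carrying day 7 cells held 107 of the 114 cells, and 102 of these came from L58 (22 cells), L61 (27), L62 (47) and L63 (6), all labelled bone marrow and spleen. Day 5 libraries held 6 cells, 5 in the spleen library L66 and 1 in L86, and 1 cell lay in L88, which mixes day 1 and day 3. The annotation lists all transplanted cells under the sorting phenotype GFPP. How donors and recipients were treated, and how many animals stand behind a library, was not given in the sources used here. They were set against 95 Ho tMPP3 cells, of which 73 came from the MPP3 sorting gate, 12 from HPC3, 7 from MPP4, 2 from MPP2 and 1 from HPC2. They lay in bone marrow libraries L26 (9 cells), L28 (3), L38 (2), L39 (49) and L40 (5) and in bone marrow and spleen libraries L50 (1) and L52 (26). No library held sums of at least 5 cells of both origins, so origin cannot be told apart from library number, organ label and sorting gate. The second set for comparison was 190 transplanted cells of day 7 libraries predicted as tMPP1, tMPP2, tMPP4 or tMPP5.

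MPP3 is the usual name for a multipotent progenitor that leans towards granulocytes and monocytes. On that path the cell first fills primary (azurophil) granules with serine proteases and myeloperoxidase, and only later makes secondary granule proteins such as cathelicidin and lactoferrin. The factors Cebpa and PU.1 (gene Spi1) drive the primary granule programme, and Irf8 favours the monocyte and dendritic fate.

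The share of tMPP3 among a library's transplanted cells was very uneven. On day 7 it was 78.3% in L62 (47 of 60 cells), 59.5% in L58 (22 of 37), 56.3% in L61 (27 of 48) and 13.3% in L63 (6 of 45). The other 6 day 7 libraries gave 20% in L49 (1 of 5 cells), 3.92% in L60, 2.13% in L47, 1.82% in L59 and 0% in L55 (0 of 5) and L78 (0 of 36, which allows up to 8.33%). Thus 4 libraries supplied nearly all cells, and 3 day 7 libraries with 47 to 55 cells each held 1 or 2. Day 5 libraries gave 62.5% in L66 (5 of 8 cells), 1.39% in L86 (1 of 72) and 0% in the other 5. Each of those 5 held 46 to 54 cells, so that 3 cells per library, the limit used here for a count of 0, allow a share of up to 5.56% to 6.52%. The exact 95% binomial upper limits that are plotted are higher, at 6.6% to 7.71% for these 5 libraries and 9.74% for L78. The day 7 mean of 23.5% ± 29.6 (SD, n = 10) did not differ detectably from the day 5 mean of 9.13% ± 23.5 (n = 7) in a two-sided exact permutation test over libraries (p = 0.241). Without L66 the day 7 minus day 5 difference was 23.3 points (exact p = 0.00699). Among libraries of at least 10 transplanted cells it was 26.7 points (8 and 6 libraries, exact p = 0.00466). None of the 186 cells of the single-day libraries of days 1 and 3 was tMPP3.

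**Figure D1:**
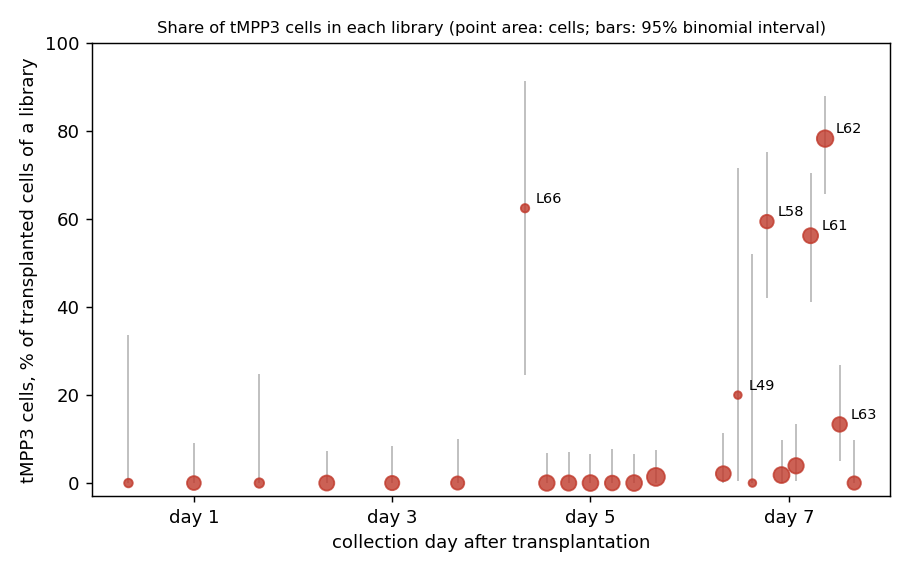
Share of tMPP3 cells among the transplanted cells of each library (y axis, percent) by collection day (x axis); point area grows with the number of cells and bars are 95% exact binomial intervals, which cover counting error only. L58, L61, L62 and L63 on day 7 and L66 on day 5 hold most tMPP3 cells, at 13.3% to 78.3%.

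Library sums of at least 5 cells were the unit of every comparison below: Tx L58, L61, L62, L63 and L66, and Ho L26, L39, L40 and L52, always listed in this order. Day 7 Tx sums held 2845480 to 17574512 counts, the L66 sum 354725 counts, and Ho sums 2526004 to 22862728 counts. The library medians of counts per cell averaged 373690.0 ± 177760.0 in Tx and 444480.0 ± 91962.0 in Ho (SD, n = 5 and 4, two-sided exact permutation p = 0.603). Medians of detected genes per cell were 7365 ± 661 in Tx and 7536 ± 425 in Ho (n = 5 and 4, exact p = 0.698). The smallest p that 5 against 4 libraries allow is 0.0159. Levels are CPM, counts scaled to 1000000 per sum, adjusted between the 9 sums with TMM factors unless stated otherwise.

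The 4 marker genes stood higher in the day 7 tMPP3 sums than in the sums of the other day 7 transplanted types. Mpo (myeloperoxidase) reached 4308 ± 1086 CPM in day 7 Tx tMPP3 sums (unscaled, SD, n = 4), against 86.7 ± 98 CPM in Tx tMPP2 (n = 5), 134 ± 132 CPM in Tx tMPP5 (n = 4) and 189.8 ± 204 CPM in Tx tGM, the granulocyte and monocyte type (n = 5). Elane (neutrophil elastase) stood at 3255 ± 1568 CPM in tMPP3 and 30.5 ± 39.5 CPM in tMPP2, and Ctsg (cathepsin G) at 4554 ± 1300.2 CPM in tMPP3 and 77.4 ± 77.4 CPM in tMPP2. The level of Cebpa, the transcription factor of granulocyte commitment, was 41.7 ± 6.32 CPM in tMPP3 and 1.8 ± 2.39 CPM in tMPP2. Per cell, all 102 cells of the 4 day 7 libraries carried counts of Mpo, Elane and Ctsg, with a median of 5003 CPM Mpo (lowest 272, highest 10561) against 44.4 CPM in the 190 other tMPP cells. The predicted types may rest on the expression of these genes, so these values describe the label and are no test of it. Among the 5 day 7 cells outside the sums the markers were less uniform. Both L60 cells had 0 Elane counts, one of them also 0 Mpo counts, and the L47 cell had 195 CPM Mpo and 84.6 CPM Elane.

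**Figure D2:**
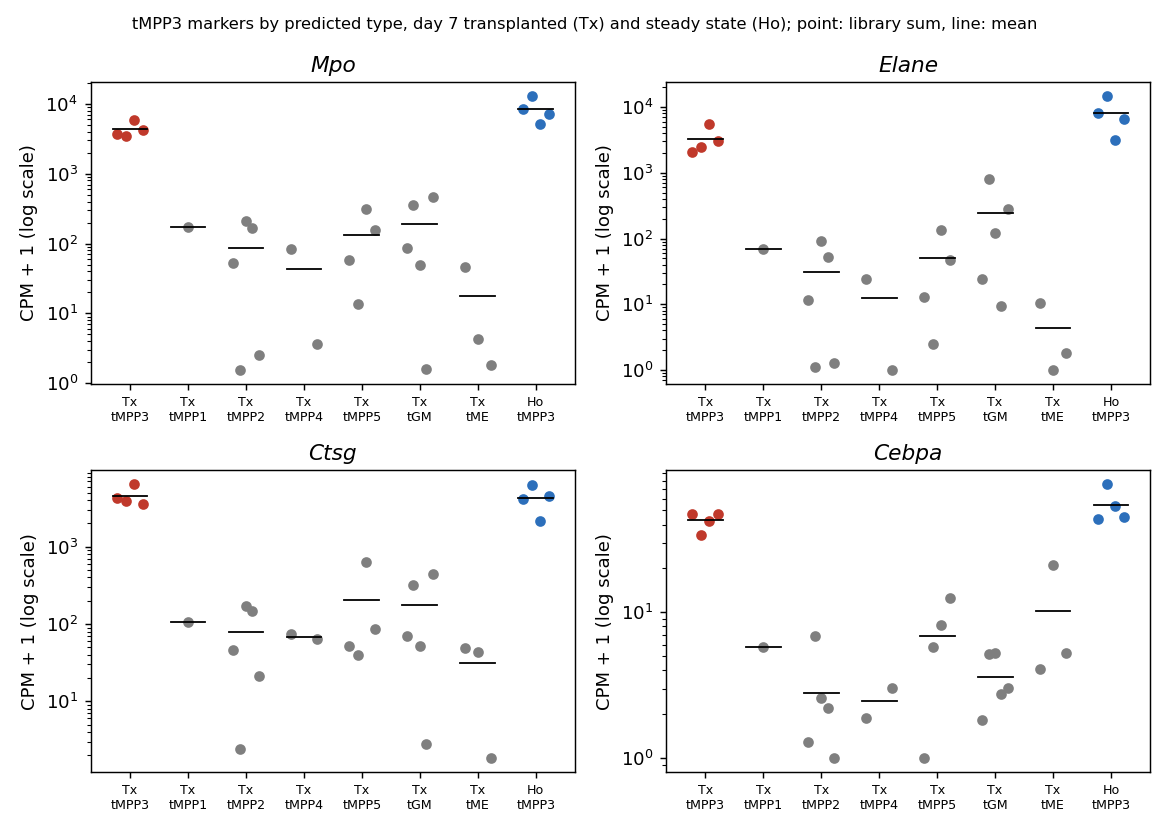
Level of the 4 markers (y axis, CPM + 1 on a log scale) in library sums of at least 5 cells for day 7 transplanted types and, at the right, Ho tMPP3; points are libraries and lines are means. Tx tMPP3 and Ho tMPP3 stand above every sum of the other day 7 types for all 4 genes.

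The promoters of the peroxidase Mpo and of 3 granule proteases are shown because these genes were higher together in tMPP3 than in the other tMPP cells of all 4 libraries, as given further on. The windows are RefSeq sequences (GRCm38.p6, 250 bases before to 50 after the RefSeq gene start). GENCODE places the starts of Mpo (87793581) and Elane (79886247) further upstream, inside these windows. By that start most of the Mpo window lies within the gene. Capitals mark the PU.1 core GAGGAA, searched on both strands as GAGGAA or TTCCTC. The Mpo window (chr11:87793534-87793833, plus strand) holds 2 matches and those of Elane (chr10:79886062-79886361, plus), Prtn3 (chr10:79879417-79879716, plus) and Ctsg (chr14:56102525-56102824, minus) 1 each. At least 1 match occurs in 28.3% of 32851 such windows. The C/EBP letters TTNNGNAA, searched on both strands, occur in 40.7% of windows and in none of these 4. Elane and Prtn3 (proteinase 3) lie beside each other on chromosome 10.
Mpo: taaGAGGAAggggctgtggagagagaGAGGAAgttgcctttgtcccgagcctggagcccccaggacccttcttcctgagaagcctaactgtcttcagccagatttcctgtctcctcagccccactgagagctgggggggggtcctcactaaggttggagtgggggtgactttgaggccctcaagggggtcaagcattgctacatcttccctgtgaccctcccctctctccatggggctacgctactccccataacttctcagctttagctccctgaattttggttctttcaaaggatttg
Elane: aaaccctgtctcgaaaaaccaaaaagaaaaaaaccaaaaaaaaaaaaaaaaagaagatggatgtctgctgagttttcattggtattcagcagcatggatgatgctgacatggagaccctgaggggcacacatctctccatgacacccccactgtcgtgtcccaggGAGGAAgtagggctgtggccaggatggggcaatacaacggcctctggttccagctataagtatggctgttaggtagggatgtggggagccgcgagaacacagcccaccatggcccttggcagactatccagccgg
Prtn3: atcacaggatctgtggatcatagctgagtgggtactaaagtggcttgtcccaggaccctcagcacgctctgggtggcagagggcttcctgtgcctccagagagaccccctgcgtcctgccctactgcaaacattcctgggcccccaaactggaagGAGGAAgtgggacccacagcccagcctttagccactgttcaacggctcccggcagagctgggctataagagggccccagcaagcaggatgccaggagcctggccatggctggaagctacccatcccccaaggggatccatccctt
Ctsg: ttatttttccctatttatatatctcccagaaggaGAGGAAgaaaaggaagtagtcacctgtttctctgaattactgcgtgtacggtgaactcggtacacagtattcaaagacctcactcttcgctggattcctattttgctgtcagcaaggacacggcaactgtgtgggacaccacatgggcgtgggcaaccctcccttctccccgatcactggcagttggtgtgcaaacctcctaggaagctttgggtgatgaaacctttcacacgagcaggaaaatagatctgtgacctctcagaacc

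The 5 tMPP3 cells of L66 stood apart, and counts of calls are given with and without them. They carried a median of 71543 counts and 252 to 421 Mpo counts each, while the tMPP4 cell of the same library had 275 Mpo counts among 665880 counts. The ratio of Elane to Mpo counts was 0.874 to 1.16 in the 5 cells, and 1.02, 1.05 and 1.19 in the library's other 3 cells, 2 tGM1 and 1 tMPP4. In day 7 tMPP3 cells that ratio ran from 0.0788 to 1.2 in L58, 0.113 to 1.119 in L61, 0.331 to 1.41 in L62 and 0.0756 to 1.03 in L63. Ctsg had 0.421 to 0.555 counts per Mpo count in the 5 cells and 0.455 to 0.465 in the other 3. C1qb, a complement gene of tissue macrophages, had 0.0887 to 0.13 counts per Mpo count in the 5 cells and 0.124 to 0.152 in the other 3. The 5 defining macrophage genes C1qa, C1qb, C1qc, Vcam1 and Adgre1 summed to 2117 CPM (unscaled) in the L66 tMPP3 sum. The same genes summed to 4.9 to 41.1 CPM in day 7 Tx sums and 0.792 to 49.6 CPM in Ho sums. Late neutrophil markers Ltf, Camp, Ngp and S100a8 summed to 16602 CPM in L66. In L66 the ratios of Elane, Ctsg and C1qb to Mpo thus lay in similar ranges in the 5 tMPP3 and the other 3 cells. Camp per Mpo count set apart only the 2 tGM1 cells, at 7.26 and 6.12. The tMPP4 cell, at 0.898, lay within the range of the tMPP3 cells, 0.84 to 0.98.

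Within the 4 day 7 libraries, tMPP3 cells could be set beside the other tMPP cells of the same library (22 against 7 cells in L58, 27 against 21 in L61, 47 against 6 in L62 and 6 against 38 in L63). Of 9535 genes, 164 (1.72%) were more than 2-fold higher in tMPP3 in every library and 310 (3.25%) more than 2-fold lower. The predicted types may rest on these genes, so this is a description without a test. Granulocyte genes led the higher side. Trem3, a receptor of myeloid cells, had 219, 242, 393 and 166 CPM in tMPP3, against 8.00, 9.16, 12.8 and 3.25 CPM in the other tMPP cells. Anxa3 (annexin A3) had 186, 209.8, 303 and 217 CPM in tMPP3, against 9.33, 7.19, 15.7 and 7.19 CPM in the other tMPP cells, and Cebpe, the factor that governs the later granule stages, 28.4, 63.4, 185 and 47.4 CPM in tMPP3, against 2.22, 1.26, 7.12 and 1.18 CPM in the other tMPP cells. The log2 ratios (with 1 CPM added) over the 4 libraries spanned 4.58 to 5.30 for Trem3, 3.90 to 5.87 for Elane, 3.44 to 4.97 for Ctsg, 3.44 to 4.72 for Mpo, 4.17 to 4.90 for Igsf6 and 4.02 to 5.05 for Mtus1. Sgms2, a sphingomyelin synthase, and Dmkn (dermokine) completed the 10 leading genes.

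Of 14 primary granule genes, 10 were past 2-fold higher in every library (1.72% of all genes were), among them Prtn3, Ms4a3, Hp, Prss57, Cst7 and Gstm1, and none lower. Prtn3 had 2708, 3368, 3929 and 2396 CPM in tMPP3, against 316, 386, 336 and 270.1 CPM in the other tMPP cells. Of 12 granulocyte and monocyte transcription factors, Cebpa, Cebpd, Cebpe, Gfi1 and Spi1 were past 2-fold higher and Zeb2, a repressor needed in monocyte and dendritic development, past 2-fold lower. Of 18 monocyte and dendritic genes, Cx3cr1 and Ly6c2 were past 2-fold higher in every library and Zeb2 was the 1 lower. The median log2 ratio of that list was 1.23. Spi1 had 291, 331, 374 and 232 CPM in tMPP3, against 91.1, 114, 82.5 and 104 CPM in the other tMPP cells, a narrower gap than that of the granule genes. Of 19 receptor genes the cytokine receptor chain Csf2rb was past 2-fold higher in every library, and the erythropoietin receptor gene Epor was among those past 2-fold lower.

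The lower side held genes of stem cells and of the megakaryocyte and erythroid path. Slc14a1, a urea transporter, had 0.700, 0.968, 0.114 and 1.76 CPM in tMPP3, against 206, 145, 65.5 and 89.7 CPM in the other tMPP cells. Angpt1 (angiopoietin 1) had 14.3, 11.9, 3.53 and 7.73 CPM in tMPP3, against 227, 230.3, 168 and 245 CPM in the other tMPP cells. The adhesion molecule Esam had log2 ratios of -6.19 to -4.38. Of 23 genes of stem cell identity 14 were past 2-fold lower in all 4 libraries (3.25% of all genes were), including Mecom, Meis1, Mllt3, Erg and Ly6a. Of 12 megakaryocyte genes 8 were lower, including Pf4 and Gp9, and of 8 erythroid genes 5, including Gata1 and Car2. Pf4 (platelet factor 4) was at 1573 and 1004 CPM in the other tMPP cells of L58 and L61 but only 49.8 and 54.9 CPM in those of L62 and L63, and its log2 ratio spanned -5.49 to -1.06. Interferon-induced genes also lay on this side, with 7 of 25 past 2-fold lower (Gbp7, Ifi27l2a, Ifi44, Igtp, Irf7, Oasl2 and Rtp4). Ribosome biogenesis (0 of 26), oxidative phosphorylation (0 of 26) and mitotic genes (0 of 27) did not separate tMPP3 from its neighbours by this measure.

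Transplanted and steady state tMPP3 cells were then compared with edgeR's quasi-likelihood test over library sums, with a Benjamini-Hochberg adjusted p under 0.05 called. With all 5 Tx and 4 Ho sums, 10 of 10519 tested genes were called (0.0951%), 3 higher (0.0285%) and 7 lower (0.0665%) in Tx, against 1251 genes at an unadjusted p under 0.05. With L66 left out, 319 of 10383 genes were called (3.07%), 155 higher (1.49%) and 164 lower (1.58%). All 10 genes were among the 319, with the same sign, and the others of the 319 were not called when L66 was included, although 314 of the 319 had the same sign there. The count for 9 sums was 0 without L26, without L52 or without L63, and that for 8 sums ranged from 107 without L58 to 444 without L40. With cells of the MPP3 gate as the only Ho cells, 170 genes were called on day 7. Adjusted p-values below come from the 8 sums of day 7 Tx and Ho unless stated. Of 66 named genes called there, 27 were called again in each of the 8 fits that left out 1 library, and none changed sign in these fits.

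Metallothionein 2 had the largest log2 change upwards among the 10 genes called over all 9 sums. Mt2, a small protein that binds zinc and copper, was at 50.4, 82.4, 49.6 and 60.9 CPM in day 7 Tx sums, against 4.2, 5.14, 0 and 3.94 CPM in Ho sums. In L66 it was at 89.8 CPM, so all 5 Tx sums lay above all 4 Ho sums (log2 change 4.23, SE 0.66, adjusted p = 0.0258 over 9 sums; log2 change 4.10, SE 0.59, adjusted p = 0.00368 on day 7). After thinning each cell to 20000 counts, Mt2 was detected in 48% of 102 day 7 Tx tMPP3 cells, 21.1% of 190 other day 7 tMPP cells, 6.32% of 95 Ho tMPP3 cells and 2.27% of 88 Ho T cells, which served as cells without a granulocyte programme. Without thinning it was 80.4% of the day 7 Tx tMPP3 cells and 73.7% of the Ho tMPP3 cells. Mt2 lost its call over 9 sums without L26, L39, L52, L58, L61, L62 or L63, but kept its day 7 call without any 1 library. Its neighbour Mt1, named after its values were seen, was at 1403, 1747, 1250.3 and 1481 CPM in day 7 Tx sums, against 546, 444, 12.2 and 446 CPM in Ho sums. The day 7 sums of Mt1 did not overlap the Ho sums, yet L66 (373 CPM) lay within them and the gene did not pass (log2 change 2.05, SE 0.65, adjusted p = 0.108).

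Both promoters are shown because the genes sit side by side on chromosome 8 and carry several copies of the metal response element, the site of the zinc sensor MTF-1. Capitals mark the element's core, TGCGCNC or TGCACNC, on either strand, in RefSeq windows of GRCm38.p6 on the plus strand. The Mt2 window (chr8:94172368-94172667) holds 4 matches, 2 per strand, and the Mt1 window (chr8:94178839-94179138) 3. Of 32851 windows, 25.7% hold at least 1 match, 1.97% at least 3 and 0.517% at least 4.
Mt2: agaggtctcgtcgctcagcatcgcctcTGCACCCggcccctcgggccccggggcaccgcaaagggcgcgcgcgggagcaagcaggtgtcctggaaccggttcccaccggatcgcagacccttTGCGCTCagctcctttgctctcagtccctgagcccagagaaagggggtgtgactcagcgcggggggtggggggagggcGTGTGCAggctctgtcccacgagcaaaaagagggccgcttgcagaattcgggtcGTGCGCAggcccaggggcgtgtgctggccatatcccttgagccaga
Mt1: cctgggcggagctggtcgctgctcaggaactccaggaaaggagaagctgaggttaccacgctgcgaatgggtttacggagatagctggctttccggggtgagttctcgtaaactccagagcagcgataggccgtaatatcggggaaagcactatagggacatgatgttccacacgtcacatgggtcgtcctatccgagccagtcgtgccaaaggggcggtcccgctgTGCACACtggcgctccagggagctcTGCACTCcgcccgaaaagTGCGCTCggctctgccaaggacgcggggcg

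Among the primary granule genes, Mpo was lower after transplantation and the others did not pass. Mpo (chr11:87793581-87804413, GRCm38) was at 3636, 3441, 5731 and 4165 CPM in day 7 Tx sums, against 9016, 12344, 5727 and 7236 CPM in Ho sums. The lowest Ho sum, L40, lay just under the highest Tx sum, L62 (log2 change -0.99, SE 0.21, adjusted p = 0.0274; log2 change -1.01, SE 0.21, adjusted p = 0.0851 with L66). The call was lost without L26, L58, L61 or L63 (adjusted p 0.0676 to 0.0888). Elane was at 2028, 2412, 5411 and 2961 CPM in day 7 Tx sums, against 8455, 14014, 3495 and 6687 CPM in Ho sums, where 3 of 4 Ho sums exceeded every Tx sum, and missed the threshold (log2 change -1.33, SE 0.36, adjusted p = 0.0689). Ctsg overlapped fully, at 4227, 3914, 6329.8 and 3485 CPM in day 7 Tx sums, against 4424, 6048, 2369.8 and 4578 CPM in Ho sums (log2 change 0.07, SE 0.24, adjusted p = 0.917), and Cebpa overlapped in part, at 46.2, 32.7, 40.7 and 44.8 CPM in day 7 Tx sums, against 45.3, 71.5, 58.1 and 44.6 CPM in Ho sums, where 2 of 4 Ho sums exceeded every Tx sum (log2 change -0.39, SE 0.28, adjusted p = 0.517). Per cell, the median of Elane was 3367 CPM in the 102 day 7 Tx tMPP3 cells and 10346 CPM in the 95 Ho tMPP3 cells (unscaled), while that of Ctsg was 5097 CPM in Tx and 5086 CPM in Ho. Of 14 primary granule genes tested, 1 was called lower and 0 higher (1.58% and 1.49% of all genes were), with a median log2 change of -0.22 against -0.01 over all genes. Whether Elane and Ctsg changed differently from each other was not tested.

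The late neutrophil list had the highest median of all lists, 2.57 over 17 tested genes, with Camp, Ngp and Lcn2 called higher (1.49% of all genes were). Camp (cathelicidin) was at 88.7, 8.06, 142 and 0 CPM in day 7 Tx sums, against 1.5, 0.418, 0 and 0.984 CPM in Ho sums (log2 change 6.38, SE 1.36, adjusted p = 0.0254), and Ngp (neutrophilic granule protein) at 59.4, 6.57, 71.2 and 1.03 CPM in day 7 Tx sums, against 0.901, 1.67, 0 and 0 CPM in Ho sums (log2 change 5.53, SE 1.30, adjusted p = 0.0371). In the same libraries the other tMPP cells had about as much. Camp was at 89, 8.09, 145 and 0 CPM (unscaled) in tMPP3, against 99.1, 12.8, 75.4 and 1.77 CPM in other tMPP cells. The tGM cells of L58 and L62 had 8186 and 17380.0 CPM Camp, while L61 and L63 held no tGM cell. At 20000 counts per cell, Camp was detected in 54.9% of day 7 Tx tMPP3 cells, 57.9% of other day 7 tMPP cells, 61.4% of Ho T cells and 3.16% of Ho tMPP3 cells. The median depth was 416526 counts per cell in day 7 Tx tMPP3 and 129937 in Ho T cells. Ngp was detected in 49% of day 7 Tx tMPP3 cells, 64.2% of other day 7 tMPP cells, 53.4% of Ho T cells and 5.26% of Ho tMPP3 cells. For both genes the share in day 7 tMPP3 was no higher than in T cells, which should lack them. The T cells came from 2 libraries, none of them a day 7 tMPP3 library. They cannot show where the day 7 counts came from. The source of these counts was not tested, and no granulocyte stage is read from them. Camp and Ngp both changed sign when sums of at least 3 cells were admitted, which added only Ho L28 with 3 cells (log2 change -1.64 for Camp and -2.14 for Ngp).

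Lcn2 (lipocalin 2, an iron-scavenging protein) behaved differently from Camp within libraries. It was at 554, 353, 667 and 319 CPM in day 7 Tx sums, against 128, 38.2, 0 and 55.1 CPM in Ho sums (log2 change 3.13, SE 0.77, adjusted p = 0.0459), with every Tx sum, L66 included (441 CPM), above every Ho sum. Within the same libraries it was also past 2-fold higher in tMPP3, at 556, 354, 681 and 328 CPM (unscaled) against 85.7, 46.2, 122 and 5.71 CPM in other tMPP cells. Of 18 late neutrophil genes, Lcn2, Pglyrp1, S100a8 and Wfdc21 were past 2-fold higher in every library and 0 lower. Of all genes, 1.72% were higher by this measure, which is a description without a test. S100a8 was at 1243, 1993, 5134 and 351 CPM in tMPP3, against 587, 297, 1083 and 59.9 CPM in other tMPP cells. Over all day 7 libraries the types overlapped, with Lcn2 at 328 to 681 CPM in tMPP3 sums. The range was 8.47 to 334 CPM in tMPP2, 68.3 to 477 CPM in tMPP4 and 2.45 to 534 CPM in tMPP5 sums. Day 7 tGM sums held far more, 9523 to 26450 CPM. At 20000 counts Lcn2 was detected in 92.2% of day 7 Tx tMPP3 cells, 29.5% of Ho tMPP3 cells and 44.3% of Ho T cells. The edgeR call was lost without L39, L52, L58, L61, L62 or L63 (adjusted p 0.0788 to 0.12), without L26, L39, L52, L58 or L62 (adjusted p 0.0592 to 0.0844) for Camp and without L26, L52, L58 or L62 (adjusted p 0.085 to 0.122) for Ngp.

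**Figure D3:**
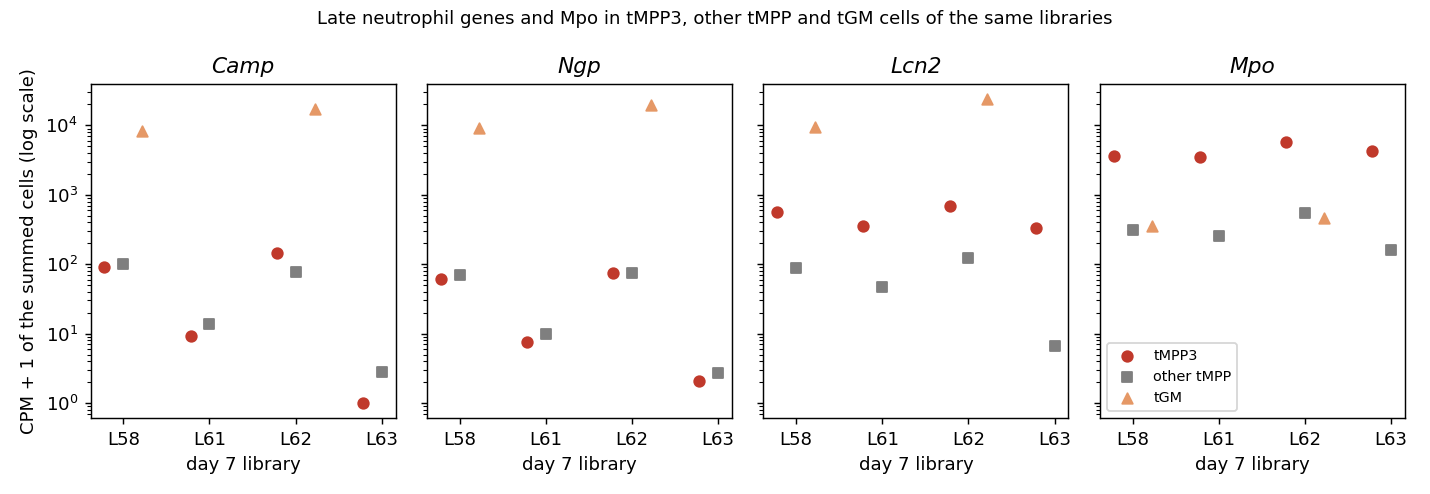
Camp, Ngp, Lcn2 and Mpo (y axis, CPM + 1 on a log scale) in the summed tMPP3, other tMPP and tGM cells of each day 7 library (x axis). Camp and Ngp follow the library in tMPP3 and other tMPP cells alike, whereas Lcn2 and Mpo are higher in tMPP3 than in other tMPP cells in all 4 libraries. Where tGM cells are present, their Lcn2 is above that of tMPP3.

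Some monocyte and dendritic genes were lower in day 7 transplanted tMPP3 than in Ho tMPP3. Of 16 tested, Ly6c2, F13a1 and Zeb2 were called lower (1.58% of all genes were) and none higher, with a list median of -1.97. Ly6c2, whose product is the monocyte surface antigen Ly6C, was at 118, 411, 345 and 51 CPM in day 7 Tx sums, against 1402, 3164, 805 and 1699 CPM in Ho sums (log2 change -2.90, SE 0.56, adjusted p = 0.017), and every day 7 sum lay below every Ho sum. F13a1 (coagulation factor XIII A) was at 4.78, 33.5, 17.9 and 0.685 CPM in day 7 Tx sums, against 52.5, 136, 432 and 81.5 CPM in Ho sums (log2 change -3.52, SE 0.83, adjusted p = 0.0374). Zeb2 averaged 11.4 ± 5.01 CPM in day 7 Tx sums and 49.5 ± 27.6 CPM in Ho sums (SD, n = 4 each; log2 change -2.07, SE 0.49, adjusted p = 0.0386). Irf8, the factor of monocyte and dendritic fate, was at 7.67, 101, 0.948 and 0 CPM in day 7 Tx sums, against 113, 377, 786 and 259 CPM in Ho sums without passing (log2 change -3.74, SE 1.18, adjusted p = 0.106). L61 alone carried Irf8 near the lowest Ho sum, and without L61 its log2 change was -6.89. L61 was singled out after its values were seen, so the fit without it is no test. Irf8 was called in 5 of 18 alternative fits. At 20000 counts Irf8 was detected in 16.7% of day 7 Tx tMPP3 cells, 67.4% of Ho tMPP3 cells and 2.27% of Ho T cells. Csf1r, the receptor of macrophage colony-stimulating factor, had 5.46 ± 7.43 CPM in day 7 Tx sums and 30.4 ± 14.5 CPM in Ho sums and did not pass (adjusted p = 0.1252). Its log2 change without L61 was -4.17, and it was called in 4 of 17 alternative fits. With L66, which had 272 CPM, the Csf1r change had the opposite sign (log2 change 0.77, SE 1.31, adjusted p = 0.864). Over the 9 sums with L66 the list median was -0.34, and edgeR called none of 17 tested genes, with 3 higher and 6 lower at an unadjusted p under 0.05. Ly6c2 lost its call without L58 (adjusted p 0.0628). F13a1 lost its call without L39, L40, L52, L58, L62 or L63 (adjusted p 0.0563 to 0.114). Zeb2 lost its call without L39, L58, L61, L62 or L63 (adjusted p 0.0637 to 0.114). Reads of Ly6c2 may be shared with its near copy Ly6c1.

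Nucleolar genes that build ribosomes were higher in part. Of 26 ribosome biogenesis genes 7 were called higher (26.9% against 1.49% of all genes) and 0 lower, and 25 of 26 had a log2 change above 0, with a median of 0.65. Ncl (nucleolin) was at 2082, 1745, 1639 and 1495 CPM in day 7 Tx sums, against 821, 611, 912 and 729 CPM in Ho sums (log2 change 1.22, SE 0.15, adjusted p = 0.00139). Npm1 (nucleophosmin) was at 3846, 3475, 2914 and 3538 CPM in day 7 Tx sums, against 1939.5, 1442, 1937 and 2022 CPM in Ho sums (log2 change 0.95, SE 0.13, adjusted p = 0.00208), and Ddx21, a nucleolar helicase, at 251, 263, 254 and 249.8 CPM in day 7 Tx sums, against 142, 115, 127 and 151 CPM in Ho sums (log2 change 0.97, SE 0.16, adjusted p = 0.00938). All 4 day 7 sums exceeded all 4 Ho sums for these genes, and the calls held without any 1 library. L66 gave 1042 CPM Ncl, above the Ho sums, and 1467 CPM Npm1, among them. Bop1, Nolc1, Nop58 and Odc1 were the other 4. With MPP3 gate cells as the only Ho cells, 7 of 26 were again called higher and 0 lower. In tMPP2, Npm1 was at 2412 ± 401 CPM in Tx tMPP2 and 1538 ± 296 CPM in Ho tMPP2 (SD, n = 5 and 8), and the change by origin did not differ detectably between the types (log2 difference 0.27, SE 0.22, adjusted p = 0.871).

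Chaperones also differed, with 6 of 12 tested heat shock genes called higher (1.49% of all genes were) and 0 lower (median 0.68). Hspd1 (mitochondrial HSP60) was at 638, 626, 597 and 702 CPM in day 7 Tx sums, against 254, 239, 172 and 279 CPM in Ho sums (log2 change 1.47, SE 0.17, adjusted p = 0.00105). Hsp90aa1, the inducible cytosolic HSP90, was at 3039, 3236, 3073 and 3084 CPM in day 7 Tx sums, against 2016, 1526, 1285 and 1492 CPM in Ho sums (log2 change 1.01, SE 0.13, adjusted p = 0.00171). Hsp90ab1 averaged 3062 ± 116 CPM in day 7 Tx sums and 1982 ± 130.2 CPM in Ho sums (SD, n = 4 each; log2 change 0.66, SE 0.10, adjusted p = 0.00441), with the caution that reads may be shared between HSP90 copies. These 3 calls held without any 1 library, and Hspa4, Hspa8 and Hspe1 were the other 3. The RNA exosome subunit Exosc2 was at 643, 844, 1246 and 1476 CPM in day 7 Tx sums, against 258, 268, 181 and 208 CPM in Ho sums (log2 change 2.23, SE 0.24, adjusted p = 6.0e-04), but at 112 CPM in L66, below the Ho sums. Glycolysis genes Ldha (lactate dehydrogenase A, log2 change 0.73, adjusted p = 0.0249) and Aldoa (aldolase A, 0.70, adjusted p = 0.0376) were 2 of 19 called higher, with 17 of 19 above 0. Ldha lost its call without L52, L58, L61, L62 or L63 (adjusted p 0.0504 to 0.102). Aldoa lost its call without L26, L52, L58, L61, L62 or L63 (adjusted p 0.0644 to 0.143). Of 26 oxidative phosphorylation genes, the complex I subunits Ndufb7 (-0.78, adjusted p = 0.0131), Ndufa4 (-0.74, adjusted p = 0.0174) and Ndufa1 (-0.82, adjusted p = 0.0175) were called lower (1.58% of all genes were) and Atp5b higher. The Ndufb7 call held without any 1 library, but not with at least 10 cells per sum or with MPP3 gate cells as the only Ho cells. Ndufa4 lost its call without L61 or L62 (adjusted p 0.0755 to 0.0777). Ndufa1 lost its call without L62 (adjusted p 0.074).

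Few cell cycle genes were called, although their lists were uneven in sign. Among replication genes 21 of 27 had a log2 change above 0, with 8 higher and 0 lower at an unadjusted p under 0.05 and a median of 0.27. Among mitotic genes 3 of 27 lay above 0, with 0 higher and 7 lower, and a median of -0.35. Among brakes of the cycle 3 of 13 lay above 0, with 0 higher and 4 lower, and a median of -1.36, which was -0.20 with L66. Over all genes 5158 of 10383 lay above 0, with 909 higher and 938 lower. Of 27 replication genes Rrm2 (ribonucleotide reductase M2) was the 1 called higher (1.49% of all genes were), at 369, 437, 438 and 330.3 CPM in day 7 Tx sums, against 189, 179, 251 and 245 CPM in Ho sums (log2 change 0.91, SE 0.17, adjusted p = 0.0161; lost without L58, L61 or L62 (adjusted p 0.059 to 0.0754)). Of 27 mitotic genes Nusap1 (a spindle-associated protein) was the 1 called lower, at 65.8, 46.4, 57.1 and 32.2 CPM in day 7 Tx sums, against 135, 162, 117 and 121 CPM in Ho sums (log2 change -1.37, SE 0.26, adjusted p = 0.0147), and it held without any 1 library. Nusap1 was not called with limma on mean log2 values of cells or with MPP3 gate cells as the only Ho cells. That gate fit called 0 of 27 mitotic genes and 0 of 14 brakes of the cycle. Of 13 tested brakes of the cycle Ccng2 (cyclin G2, log2 change -3.11, adjusted p = 0.0187) and Btg1 (-1.96, adjusted p = 0.044) were called lower (1.58% of all genes were). Ccng2 lost its call without L58 or L62 (adjusted p 0.0653 to 0.0723). Btg1 lost its call without L26, L39, L52, L58, L61, L62 or L63 (adjusted p 0.0529 to 0.128). L66 had 242 CPM Btg1, above all Ho sums, and with L66 the log2 change was 0.32. The H2AX histone gene H2afx, a damage-marking variant, was lower in all 5 Tx sums, at 245, 227, 157 and 143 CPM in day 7 Tx sums, against 750.3, 560.0, 689.8 and 479.6 CPM in Ho sums, and 177 CPM in L66 (log2 change -1.70, SE 0.23, adjusted p = 0.0116 over 9 sums). Of 15 p53 and DNA damage genes none was called (edgeR), with 2 higher and 1 lower at an unadjusted p under 0.05. DESeq2 called 1 higher among the 12 of them to which it gave an adjusted p, and 5 mitotic genes lower where edgeR called 1.

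Several further genes of the 9-sum comparison separated all Tx from all Ho sums. Rab33b, a small GTPase of the Golgi and of autophagy, was at 326, 475, 603 and 618 CPM in day 7 Tx sums, against 154, 109, 132 and 99.8 CPM in Ho sums, and 373 CPM in L66 (log2 change 1.96, SE 0.27, adjusted p = 0.0116). Pdcd4, an inhibitor of translation initiation, was at 59.7, 67.8, 67.1 and 80.4 CPM in day 7 Tx sums, against 365, 363, 136 and 348 CPM in Ho sums (log2 change -2.15, SE 0.30, adjusted p = 0.0116). Ramp1, a co-receptor for the neuropeptide CGRP, was at 288, 283, 234 and 208 CPM in day 7 Tx sums, against 596, 633, 921 and 808 CPM in Ho sums (log2 change -1.57, SE 0.21, adjusted p = 0.0116). Serpinf1 (pigment epithelium-derived factor) was at 6.48, 9.02, 4.85 and 8.56 CPM in day 7 Tx sums, against 104, 53.5, 412 and 55.1 CPM in Ho sums (log2 change -4.52, SE 0.64, adjusted p = 0.0116), with L40 far above the other Ho sums. Ly6e had 512 ± 89.3 CPM in day 7 Tx sums and 1341 ± 421 CPM in Ho sums (SD, n = 4 each; log2 change -1.32, SE 0.22, adjusted p = 0.049) and Serf2 839.7 ± 49.6 CPM in day 7 Tx sums and 1930.2 ± 181 CPM in Ho sums (log2 change -1.24, SE 0.15, adjusted p = 0.0116). L66 followed the day 7 sums for these genes, at 65.3 CPM Pdcd4, 234 CPM Ramp1 and 2.72 CPM Serpinf1. Leaving out L26, L52 or L63 from the 9 sums ended all of these calls. Over 9 sums, Ly6e was also lost without L39, L40, L58, L61 or L62 and with RLE factors. Pdcd4 was also lost without L39 or L58, Rab33b without L39 and Serpinf1 without L58. In the 8 sums without L66 the calls of all these genes held without any 1 library.

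Several immediate early genes were lower in day 7 transplanted tMPP3. Of 18 tested, 4 were called lower and 1 higher (1.58% and 1.49% of all genes were), with a median of -1.35. Over the 9 sums with L66 the median was 0.06 and edgeR called none, with 1 higher and 0 lower at an unadjusted p under 0.05. The AP-1 subunit Fos was at 7.77, 6.31, 25.3 and 21.6 CPM in day 7 Tx sums, against 122, 50.5, 42.3 and 359 CPM in Ho sums (log2 change -3.23, SE 0.67, adjusted p = 0.0242). Jun was at 16.9, 29.9, 10.6 and 21.9 CPM in day 7 Tx sums, against 123, 28.8, 64.2 and 153 CPM in Ho sums (log2 change -2.19, SE 0.48, adjusted p = 0.0284), the phosphatase Dusp1 at 7.87, 5.52, 3.12 and 4.11 CPM in day 7 Tx sums, against 81.4, 9.56, 15.3 and 111 CPM in Ho sums (log2 change -3.34, SE 0.72, adjusted p = 0.026) and Fosb at 0.399, 0.0876, 0.613 and 1.71 CPM in day 7 Tx sums, against 54.3, 6.31, 2.18 and 18.1 CPM in Ho sums (log2 change -5.04, SE 1.10, adjusted p = 0.029). Ho sums differed widely among themselves, with L26 and L52 above L39 and L40 for Fos, Jun and Dusp1. L66 was as high as the highest Ho sum or higher for Fos (433 CPM) and Dusp1 (332 CPM), and with L66 neither passed (log2 change -0.69, adjusted p = 0.858 for Fos; 0.21, adjusted p = 0.965 for Dusp1, the opposite direction). Socs3, a feedback inhibitor of cytokine signalling, was called higher, at 4.58, 5.25, 5.41 and 5.13 CPM in day 7 Tx sums, against 0.300, 0, 0 and 0.281 CPM in Ho sums, and at 0 CPM in L66 (log2 change 5.09, SE 1.27, adjusted p = 0.0486). Fos lost its call without L52, L58, L61 or L63 (adjusted p 0.0564 to 0.0865). Jun lost its call without L26, L52, L58, L62 or L63 (adjusted p 0.072 to 0.0949). Dusp1 lost its call without L26, L52, L58, L61, L62 or L63 (adjusted p 0.0626 to 0.0826). Fosb lost its call without L26, L52, L58, L61 or L62 (adjusted p 0.0614 to 0.113). Socs3 lost its call without L26, L39, L40, L52, L58, L61, L62 or L63 (adjusted p 0.0599 to 0.141).

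Genes of the cell surface and of antigen presentation also differed. Ifitm1, an interferon-induced membrane protein, was at 2464, 2659, 1571 and 2299.7 CPM in day 7 Tx sums, against 712, 47.5, 714 and 325 CPM in Ho sums (log2 change 2.37, SE 0.55, adjusted p = 0.0361), and Ifitm3 averaged 1286 ± 323 CPM in day 7 Tx sums and 481 ± 210.4 CPM in Ho sums (SD, n = 4 each; log2 change 1.46, SE 0.33, adjusted p = 0.0296). Among 22 interferon genes Ifitm3 and Xaf1 were the 2 called higher and none was lower (1.49% and 1.58% of all genes were), with a median of 0.11. With MPP3 gate cells as the only Ho cells, 0 of 25 interferon genes were called. At 20000 counts Ifitm1 was present in all 102 day 7 Tx tMPP3 cells, in 99.5% of other day 7 tMPP cells and in 62.1% of Ho tMPP3 cells. Cd34 was at 163, 66.6, 42.8 and 72.6 CPM in day 7 Tx sums, against 221, 154, 474 and 251 CPM in Ho sums (log2 change -1.62, SE 0.41, adjusted p = 0.0486), and Kit, the stem cell factor receptor, at 42.2, 14.9, 29.3 and 20.5 CPM in day 7 Tx sums, against 84.1, 90.2, 45.8 and 103 CPM in Ho sums (log2 change -1.56, SE 0.37, adjusted p = 0.0374). Ho cells had been taken through named progenitor gates and Tx cells as GFPP; the part of the gates in these surface genes was not tested. Of 11 class I antigen presentation genes B2m (beta-2 microglobulin, log2 change -0.98, adjusted p = 0.00938) and H2-D1 (-0.73, adjusted p = 0.0242) were called lower and none higher. B2m held without any 1 library. With MPP3 gate cells as the only Ho cells, however, 0 of 11 class I genes were called lower and 1 higher. DESeq2 called 4 of 11 lower and 1 higher. Ifitm1 lost its call without L26, L52, L58, L61, L62 or L63 (adjusted p 0.0539 to 0.109). Ifitm3 lost its call without L26, L52, L58, L61 or L62 (adjusted p 0.0506 to 0.101). Xaf1 lost its call without L39, L52, L58 or L62 (adjusted p 0.0642 to 0.139). Cd34 lost its call without L26, L40, L52, L61, L62 or L63 (adjusted p 0.0706 to 0.122). Kit lost its call without L26, L39, L52, L61, L62 or L63 (adjusted p 0.0667 to 0.0947). H2-D1 lost its call without L26, L61 or L62 (adjusted p 0.0592 to 0.0925). In L66, Kit (98 CPM), B2m (5686 CPM) and H2-D1 (1241 CPM) lay at or above the day 7 and most Ho sums.

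The remaining genes with the largest day 7 changes were mostly of low level. Degs2, a sphingolipid desaturase and hydroxylase, was at 33.1, 14.9, 26.5 and 18.8 CPM in day 7 Tx sums, against 0.600, 1.13, 0 and 0.632 CPM in Ho sums (log2 change 5.07, SE 0.71, adjusted p = 0.00309). Smim6 was at 32.7, 25.8, 39.6 and 8.56 CPM in day 7 Tx sums, against 1.2, 1.34, 1.75 and 0.281 CPM in Ho sums (log2 change 4.69, SE 0.72, adjusted p = 0.00527), and Mc1r, the melanocortin 1 receptor, at 36.5, 9.02, 9.14 and 8.9 CPM in day 7 Tx sums, against 0, 0.251, 0 and 0.281 CPM in Ho sums (log2 change 6.30, SE 0.97, adjusted p = 0.00527). Lipg (endothelial lipase) had no count in the 4 Ho sums and 1.1, 11.8, 58 and 1.71 CPM in day 7 Tx sums, most of it in L62. Against a floor of 3 counts over the Ho sums it was at least 412-fold higher in the pooled day 7 counts, and at least 90.0-fold higher without L62. Thy1, Ptpn4 and Wdr78 had log2 changes of 6.36, 6.95 and 6.93 at mean levels of 12.1, 3.79 and 5.61 CPM in day 7 Tx sums. On the lower side, Pyhin1, of an interferon-inducible family, was at 0.199, 1.14, 0 and 0 CPM in day 7 Tx sums, against 33.3, 49.6, 107 and 59.2 CPM in Ho sums (log2 change -7.30, SE 0.89, adjusted p = 0.00139). Alcam, an adhesion molecule, was at 1.3, 1.93, 2.06 and 0.342 CPM in day 7 Tx sums, against 27.3, 21, 24 and 21.6 CPM in Ho sums (log2 change -3.93, SE 0.60, adjusted p = 0.00527), and Ypel2 at 0.199, 0.263, 1.28 and 1.03 CPM in day 7 Tx sums, against 6.00, 21.1, 24 and 19.4 CPM in Ho sums (log2 change -4.66, SE 0.83, adjusted p = 0.0131). Erdr1, which has no GRCm38 position in the annotation used and may be a multicopy gene, was at 2.29, 2.71, 0.0557 and 0 CPM in day 7 Tx sums, against 313, 169, 201 and 203 CPM in Ho sums (log2 change -7.27, SE 0.74, adjusted p = 6.0e-04). L66 had 133 CPM Erdr1, and with it the gene was not called (log2 change -3.65, SE 1.49, adjusted p = 0.364). In tMPP2 Erdr1 stood at 10.6 ± 12.4 CPM in Tx tMPP2 and 257 ± 92.9 CPM in Ho tMPP2. Fhit, Car1 (carbonic anhydrase 1), Smox (spermine oxidase) and Abcg1 (a sterol exporter) had log2 changes of -7.16, -5.82, -5.37 and -3.93. Mc1r lost its call without L58 (adjusted p 0.0509). Lipg lost its call without L39, L52 or L62 (adjusted p 0.0552 to 0.0848). Thy1 lost its call without L52, L58 or L62 (adjusted p 0.0642 to 0.102). Ptpn4 lost its call without L39, L52, L58 or L62 (adjusted p 0.0575 to 0.0847). Wdr78 lost its call without L39, L52, L58, L61, L62 or L63 (adjusted p 0.0625 to 0.111). Fhit lost its call without L58, L61 or L62 (adjusted p 0.0613 to 0.0773). Car1 lost its call without L26, L39, L52, L58, L61 or L63 (adjusted p 0.0737 to 0.121). Smox lost its call without L26, L40, L52, L58, L61, L62 or L63 (adjusted p 0.0556 to 0.126). Abcg1 lost its call without L40, L52, L58, L61 or L62 (adjusted p 0.0542 to 0.102). With L66, the log2 change was -0.17 for Car1 and 0.13 for Abcg1, so that Abcg1 changed sign.

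**Figure D4:**
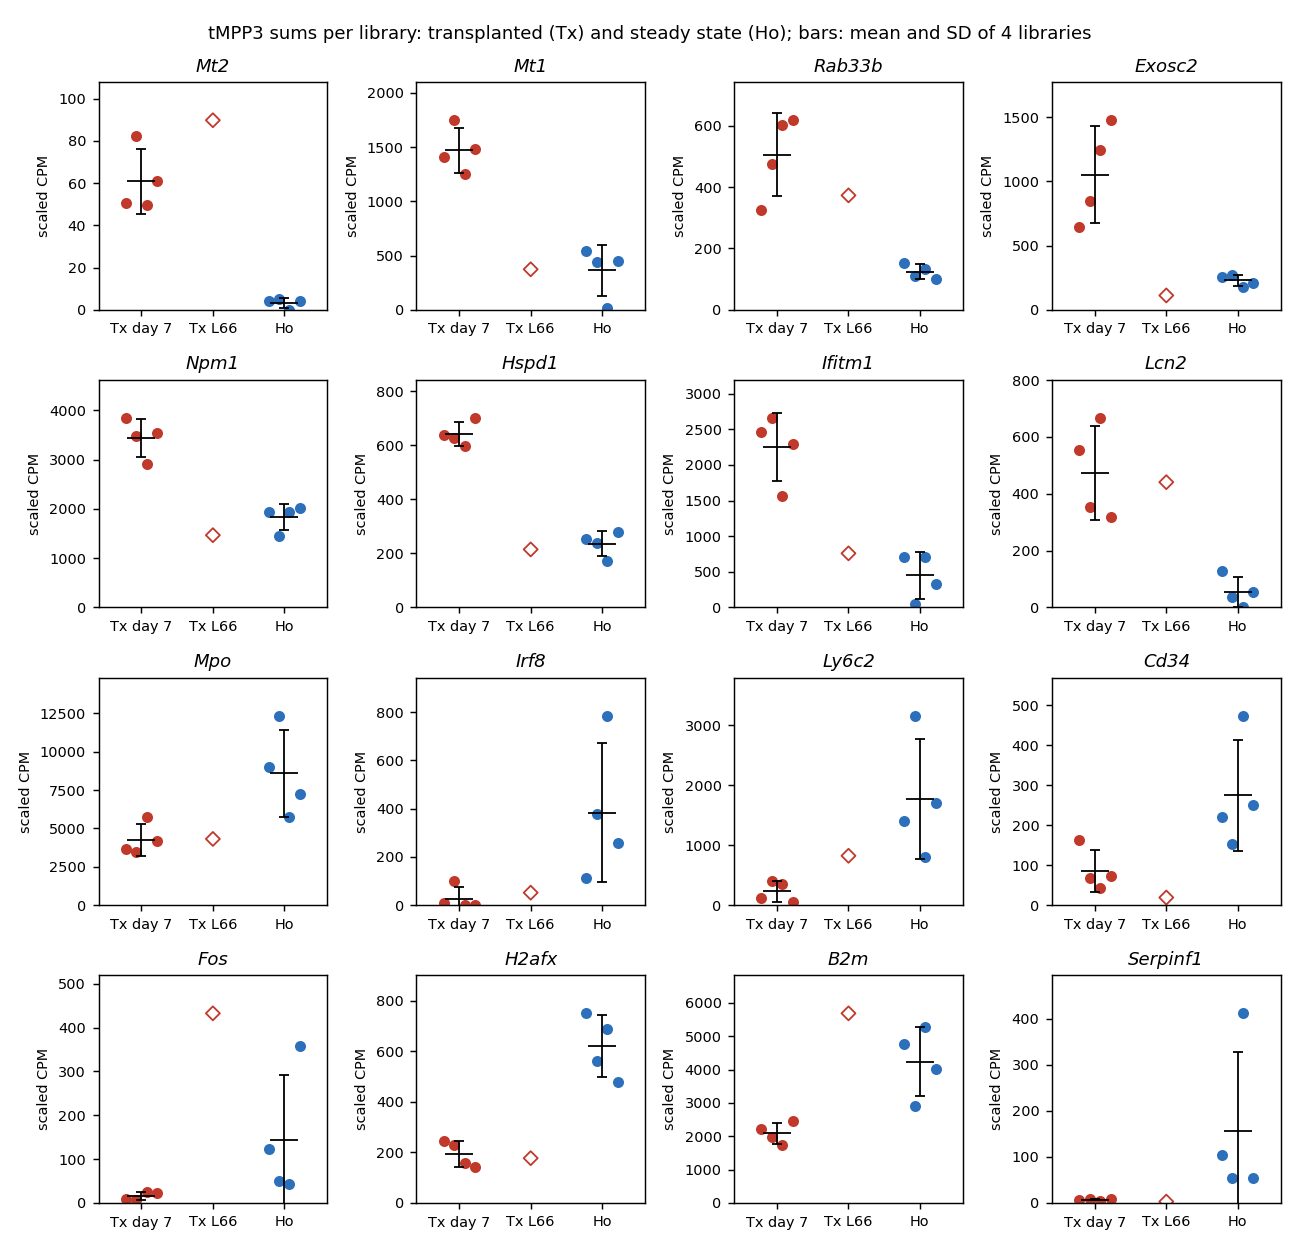
Levels of 16 genes (y axes, scaled CPM) in tMPP3 sums: day 7 transplanted libraries L58, L61, L62 and L63 (filled red), L66 of day 5 (open diamond) and Ho libraries L26, L39, L40 and L52 (blue), with the mean and SD of the 4 libraries of each filled group. Day 7 and Ho sums do not overlap for Mt2, Rab33b, Npm1, Hspd1 or H2afx, and L66 falls with the Ho sums for Mt1, Npm1 and Hspd1.

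Some further list members were called singly, where 1.49% of all genes were called higher and 1.58% lower. Cd52, a surface antigen of lymphoid cells, had 27.9 ± 27.6 CPM in day 7 Tx sums and 216 ± 76.4 CPM in Ho sums (SD, n = 4 each; log2 change -2.88, SE 0.61, adjusted p = 0.0246) and was 1 of 5 lymphoid priming genes called. Ccl9, a chemokine of myeloid cells, was lower (137 ± 25.4 CPM in day 7 Tx sums and 404 ± 189 CPM in Ho sums; log2 change -1.52, SE 0.30, adjusted p = 0.0187) and Myd88, the adaptor of Toll-like and interleukin 1 receptors, higher (85.7 ± 19.6 CPM in day 7 Tx sums and 30.1 ± 9.47 CPM in Ho sums; log2 change 1.54, SE 0.31, adjusted p = 0.0204) among 20 inflammatory genes. Gclm, which makes glutathione, was higher (159 ± 12.1 CPM in day 7 Tx sums and 74.7 ± 20.8 CPM in Ho sums; log2 change 1.13, SE 0.22, adjusted p = 0.0175) and Gpx1 (glutathione peroxidase 1) lower (3009 ± 192 CPM in day 7 Tx sums and 4137 ± 188 CPM in Ho sums; log2 change -0.42, SE 0.09, adjusted p = 0.0249) among 23 oxidase and antioxidant genes. Cd52 lost its call without L26, L58 or L62 (adjusted p 0.0539 to 0.0896). Ccl9 lost its call without L62 or L63 (adjusted p 0.0556 to 0.0641). Myd88 lost its call without L52, L58, L61 or L62 (adjusted p 0.0623 to 0.0767). Gclm lost its call without L52, L58, L62 or L63 (adjusted p 0.0532 to 0.0774). Gpx1 lost its call without L26, L58, L61, L62 or L63 (adjusted p 0.0573 to 0.089). No gene was called by edgeR among 21 homing and adhesion genes (2 higher and 1 lower at an unadjusted p under 0.05), 22 cholesterol genes (2 and 0) or 22 genes of the unfolded protein response (5 and 3). DESeq2 called 1 higher and 1 lower among the 20 homing genes to which it gave an adjusted p and among those of the unfolded protein response, and 0 cholesterol genes. Mast cell and basophil markers Cpa3, Mcpt8 and Prss34 summed to 136 to 854 CPM (unscaled) in day 7 Tx sums and 6.33 to 1346 CPM in Ho sums. The defining genes Cd3e and Ncr1 (T and NK cells) and Col1a1 and Cdh5 (stromal and endothelial cells) summed, pair by pair, to at most 0.398 CPM in any day 7 sum and to 0 in Ho sums. In L66 the pairs summed to 25.4 and 0 CPM. The whole marker lists summed to more. The 13 T and NK genes reached 503 to 949.5 CPM in day 7 Tx sums and 239 to 1341 CPM in Ho sums, the 9 B cell genes 18.6 to 47.9 CPM in Tx and 41.96 to 59.4 CPM in Ho, and the 12 stromal and endothelial genes 26 to 39 CPM in Tx and 17 to 43.4 CPM in Ho.

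**Figure D5:**
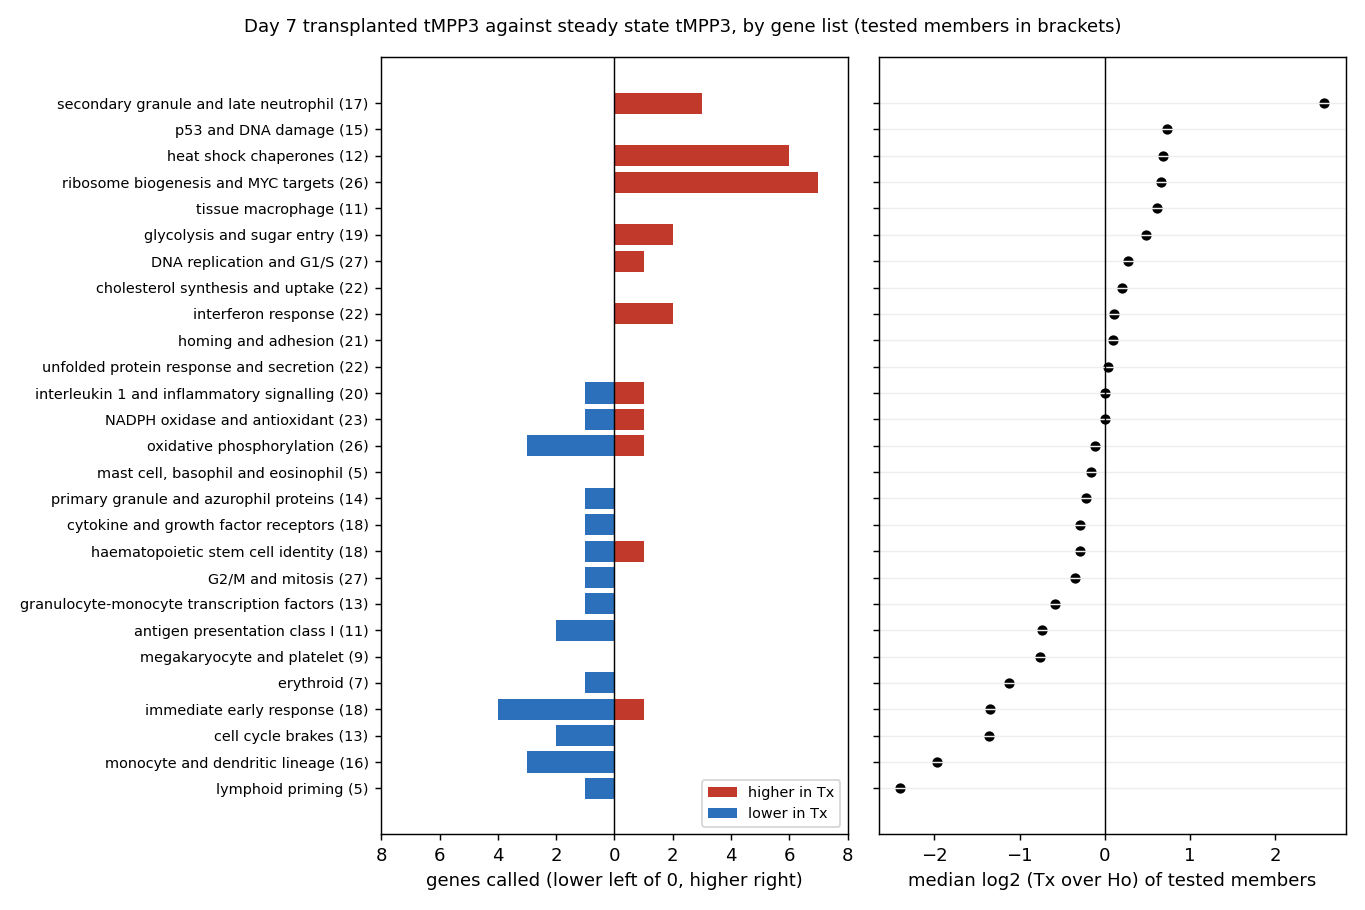
Genes called in day 7 Tx tMPP3 against Ho tMPP3 for each gene list (left; lower to the left of 0, higher to the right) and the median log2 change of the tested members (right), with the number tested in brackets. Ribosome biogenesis (7 of 26) and heat shock (6 of 12) hold the most genes called higher, and the late neutrophil list the highest median, 2.57.

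Whether these changes went further in tMPP3 than in tMPP2, the most frequent transplanted progenitor type, was tested as a difference between the types' day 7 Tx against Ho changes (4 Tx and 4 Ho tMPP3 sums, 5 Tx and 8 Ho tMPP2 sums). Of 11260 genes 5 were called (0.0444%), 1 with a higher change in tMPP3 (0.00888%) and 4 with a lower one (0.0355%), against 774 at an unadjusted p under 0.05. Tx sums of L61 and L63 and Ho sums of L26 and L52 entered for both types and share their library, and these levels are scaled over the 21 sums. Exosc2 averaged 1117 CPM in Tx tMPP3 and 242 CPM in Ho tMPP3, beside 459 ± 106 CPM in Tx tMPP2 and 381 ± 125.96 CPM in Ho tMPP2 (log2 difference 1.93, SE 0.35, adjusted p = 0.0238). Cst3 (cystatin C, a protease inhibitor) averaged 377 CPM in Tx tMPP3 and 1073 CPM in Ho tMPP3, beside 538 ± 196 CPM in Tx tMPP2 and 434 ± 73.7 CPM in Ho tMPP2 (log2 difference -1.82, SE 0.30, adjusted p = 0.0214). Bnip3l, a mitophagy receptor, averaged 50.2 CPM in Tx tMPP3 and 138 CPM in Ho tMPP3, beside 219 ± 92.8 CPM in Tx tMPP2 and 157 ± 31.2 CPM in Ho tMPP2 (log2 difference -1.93, SE 0.35, adjusted p = 0.0238). Grcc10 (log2 difference -2.40, SE 0.45, adjusted p = 0.0257) and Ly6e (log2 difference -1.77, SE 0.31, adjusted p = 0.0214) were the other 2. For these 4 genes the mean was lower in Tx than in Ho tMPP3, whereas in tMPP2 the Tx mean was above the Ho mean for Cst3, Bnip3l and Ly6e and below it for Grcc10 (412 ± 198 CPM in Tx tMPP2 and 455 ± 164 CPM in Ho tMPP2). For Mt2 the difference did not pass (log2 difference 3.43, SE 1.38, adjusted p = 0.578), with 77.5 ± 54.3 CPM in Tx tMPP2 and 49.3 ± 84.9 CPM in Ho tMPP2. No gene was called without L40, without L52 or without L62, or with at least 10 cells per sum.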

How the data were processed

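The authors' deposited table gave whole-number counts per gene and cell for 23154 genes in 2879 cells of 54 libraries; whether a count is a read or a molecule was not stated. The data were processed with TopHat, HTSeq and mm10, per the submitters' processing notes. Types came from the deposited annotation (578 cells without one were left out), and how they were predicted was not given in the sources used here. Doublets were not called. Counts were summed per library and type over at least 5 cells and tested with edgeR 4.0.16 (R 4.3.3; filterByExpr, TMM, two-sided quasi-likelihood test, Benjamini-Hochberg). P-values measure the spread between libraries, which may be technical and, among Ho sums, also takes in differences between sorting gates. The source labels are iMPP8 and iMPP9 for L26, iMPP5 for L39, iMPP6 for L40 and iMPP4, iMPP5 and iMPP6 for L52. The part of the gates in this spread was not tested. DESeq2 1.42.0 and limma 3.58.1 served as alternatives, and scipy 1.17.1 for exact permutation tests. In simulated counts for the 9 sums (10519 genes), 33 of 100 genes changed 4-fold and 58 of 100 changed 8-fold were recovered, with 10 false calls. Within-library ratios used CPM plus 1 for genes averaging at least 5 CPM. For detection, cells were thinned to 20000 counts, and no tMPP3 cell was shallower. Intervals and floors cover counting error only. Gene positions come from GENCODE.

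Members, the 31 gene lists and the tests were chosen with earlier results of these data known. The 8 sums of day 7 and Ho are given first for single genes because L66 stood apart, a choice made after seeing the data. Genes were named by rule: per comparison by origin, 10 called genes up and 10 down by size of change, each with counts in most libraries of the higher group, the 4 markers and up to 3 members of a list with the smallest p; up to 5 called genes each way for the difference from tMPP2; and within libraries the 10 leading genes each way of at least 50 CPM. Predicted transcripts, ribosomal protein and sex-linked genes were left out, and some genes the rule allows are not described. Mt1 and further list members without a test value were named after their values were seen.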

Additional observations from a re-analysis of the deposited data

Results flagged for a closer look

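Of 150 groups of 4 to 10 values examined, 43 had 1 library far from the others, and in 28 of them that library was L66. Many of these genes were named because the fit without L66 called them. The rate of about 1 in 20 that chance gives in unselected groups therefore does not apply here. L66 had the highest of the Tx tMPP3 sums for the neutrophil genes Camp (3868 CPM) and Ngp (1935), for the early response genes Fos (433), Dusp1 (332), Jun (131) and Fosb (48.99), and for the presentation genes B2m (5686) and H2-D1 (1241). It was also highest for Btg1 (242), Csf1r (272), Grcc10 (226), Cst3 (680.4), Ndufb7 (721), Nusap1 (155), Abcg1 (139), Erdr1 (133), Car1 (125), Ccng2 (43.5), Pyhin1 (16.3), Smox (13.6) and Alcam (13.6). It was lowest for Gpx1 (1679 CPM), Aldoa (302), Hspd1 (215), Ddx21 (155), Gclm (38.1) and Socs3 (0). The 62.5% share of tMPP3 in L66 was likewise far from the other day 5 libraries. Its sum of 5 cells was the shallowest, and its macrophage and neutrophil markers were high; their part in these values was not tested.

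Among the day 7 Tx sums, L62 stood apart for Lipg (58.03 CPM) and L58 for Mc1r (36.5) and Fhit (0.0996). Among Ho tMPP3 sums, L40, the sum of 5 cells and labelled iMPP6 alone, was far above the others for Ly6e (1969 CPM), Serpinf1 (412), Abcg1 (55.9), Smox (31.4) and Thy1 (0.873) and below them for Pdcd4 (136). L39 was lowest for Npm1 (1442 CPM), Ndufa4 (1134) and Ifitm3 (167) and highest for Ptpn4 (0.0418), and L26 highest for Btg1 (81.4) and Wdr78 (0.300).

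The day 7 Tx against Ho change differed between tMPP3 and tMPP2 by the tested difference in log2 change for Exosc2 (1.93), Bnip3l (-1.93), Cst3 (-1.82), Grcc10 (-2.40) and Ly6e (-1.77).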

How the results depend on the processing

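The number of genes called between Tx and Ho tMPP3 over 9 sums depended on most choices: 10 as reported, 18 with RLE factors, 23 with a filter at 10 CPM, 324 with DESeq2, 191 with at least 10 and 41 with at least 3 cells per sum, 16 with limma on mean log2 values of cells and 279 with limma voom and a library block. It was 319 with day 7 Tx cells alone, 48 with all tMPP types in 1 fit, 68 after thinning, 0 with bone marrow and spleen Ho libraries alone, 1 with MPP3 gate Ho cells and 170 with day 7 and MPP3 gate cells; leaving out 1 library gave 0 to 319. The day 7 count of 319 (155 higher, 164 lower) became 796 with DESeq2, 191 with at least 10 cells, 1031 with limma on mean log2 values (801 higher and 230 lower, with the median of all genes at 0.25), 715 with voom and 170 with MPP3 gate cells, and 107 to 444 without 1 library. A filter at 10 CPM gave 143 higher and 276 lower, and leaving out L39 115 and 192, L58 35 and 72. The difference from tMPP2 gave 5 genes as reported, 42 with DESeq2, 0 with at least 10 cells, 8 with mean log2 values, 16 with voom, and 0 to 9 without 1 library. Within libraries, 164 higher and 310 lower genes became 61 and 96 at 4-fold, 94 and 109 with 10 CPM added, 888 and 1844 in L61 alone (at least 10 cells on each side), and 195 to 283 higher and 410 to 548 lower without 1 library. The share difference was 14.4 points as reported, 26.7 for libraries of at least 10 cells and 8.31 to 23.3 without 1 library. The Tx minus Ho difference in depth was -115070.0 to 4746 counts and -424.5 to 22.5 genes per cell without 1 library, and changed sign without L66. Camp (-1.64) and Ngp (-2.14) reversed on day 7 with at least 3 cells per sum, a setting that added only Ho L28 with 3 cells. The cause was not tested. Of the values for single named genes under all alternatives, 1332 kept their side of the threshold, 354 lost the call and 32 gained one. The other 2, Camp and Ngp, were called genes that reversed. Small changes that were not called also crossed 0 in some alternatives. Examples are Ctsg (-0.27 to 0.26) and Cebpa (-0.58 to 0.05) on day 7 and Ctsg over 9 sums (-0.46 to 0.08). No paired analysis was possible because library numbers do not link Tx and Ho samples and no library held both as sums; the library block links cell types of 1 library only. Depth limits L66 most, where 1 count is worth more than in any other sum.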
